A study of Sorghum bicolor with 96 samples.

Results

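Leaves of sorghum plants labelled RTX430 were compared at ZT6, 6 h into the light period, between control conditions and 1 h at 10 °C. The libraries were chosen by their labels alone: 3 RTX430 ZT6 cold libraries and 3 RTX430 ZT6 control libraries of the cold experiment, which make 6 of its 48 libraries and 6 of the 96 libraries of the series. Growth temperatures before the stress were 30 °C (day) and 20 °C (night) for both groups, and polyA RNA of whole leaves was sequenced. The study asked how a short temperature stress acts at different times of day in sorghum genotypes that differ in tolerance. Its cold experiment holds RTX430, which the submitters call thermo-sensitive, and SC224, which they call tolerant, each at ZT1, ZT6, ZT9 and ZT15 with controls of their own at every time. The treatment text gives ZT0 in place of the earliest time, which every sample label gives as ZT1. The labels describe the 3 libraries of a group as biological replicates and give neither plant age nor the number of plants in a sample.

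Sorghum is a cereal of warm climates, and its leaves lose photosynthetic capacity when chilled. In plants in general, cold within minutes to hours raises transcripts of transcription factors, the CBF/DREB1 family being the best known, and these factors bind promoters of genes whose products protect membranes and proteins. In Arabidopsis the size of that early response depends on the time of day at which the cold arrives, since the circadian clock controls many of the same genes. The identifiers in the count table could not be paired with gene names or products, so genes are given below by identifier, with no role, and the response is described by size, position, time of day and the other comparisons in which each gene moved. The chromosome is the number carried in the identifier. The labelled tissue was not checked against marker genes for the same reason.

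Library totals were 4381528, 3782432 and 6221513 counts in control replicates 1, 2 and 3 and 2711014, 8046606 and 3597857 counts in cold replicates 1, 2 and 3. Control replicate 2 stood apart from the other controls. Its 100 most abundant genes took 32.5% of its counts, against 46.5% and 46.7% in the other controls and 47.1% to 51.7% in the cold libraries. Across genes its Spearman correlation with control replicates 1 and 3 was 0.899 and 0.902, while these correlated with each other at 0.966 and the cold libraries among themselves at 0.952 to 0.971. Control replicate 2 of SC224 at ZT6 also had a low share in its top 100 genes, 36.8% against 45.3% and 48.8%. Results that rest on control replicate 2 are therefore given with and without it. The RTX430 label also needs a limit: 250 genes switched between above 3 CPM (counts scaled to a common library total) and under 0.05 CPM between the RTX430 libraries of the cold and heat experiments, and 6 did so between cold SC224 and heat RTX430. The 6 libraries used here were alike in this respect, with 99.47% to 99.83% of the CPM of the 223 genes that switch between the cold labels coming from genes on in cold RTX430. In the SC224 libraries this share had a median of 0.34%, but it was 38.1% in ZT1 control replicate 1, which enters below as a time-of-day reference, and 4.24% in the next library. RTX430 is used below as a label only.

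Relative to the scaling used here, the response was mostly a rise. Of 18248 genes tested, 584 (3.2%) were called at a Benjamini-Hochberg adjusted p under 0.05 in edgeR's quasi-likelihood test, of which 433 were raised (2.37% of genes tested) and 151 lowered (0.827%). Large changes were mostly rises: 252 raised genes changed at least 4-fold and 45 at least 32-fold, against 51 and 3 of the lowered genes. The median log2 fold change, cold minus control, was 2.37 in the raised genes (quartiles 1.54 and 3.6) and -1.48 in the lowered genes. With genes that had no count or 1 to 3 counts in the lower group set at their bound, these medians were 2.25 and -1.46. The median over all genes tested was -0.09. Log2 fold changes below come from the same edgeR fit and are given ± SE, and levels are in CPM scaled by TMM factors (trimmed mean of M-values).

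The TMM-scaled CPM of the raised genes summed to 0.687%, 0.857% and 0.699% of 1000000 CPM in control replicates 1, 2 and 3. In cold replicates 1, 2 and 3 the sums were 3.8%, 2.96% and 3.62%. The lowered genes summed to 0.775%, 1.34% and 0.756% in the controls and 0.319%, 0.316% and 0.348% in the cold libraries. These are not shares of a library, since TMM-scaled CPM do not add up to 1000000 in each library. The TMM factors were 0.8966, 1.16 and 0.8853 in the controls and 0.7273, 0.8246 and 0.788 in the cold libraries. Where the factor is under 1, the sum exceeds the share. The raised sum was higher in every cold library than in any control and the lowered sum was lower, but control replicate 2 was the highest control in both. These sums describe genes chosen on the same libraries, and in whole leaves fewer cells of a type and less RNA per cell cannot be told apart. In single genes, the groups did not overlap in 431 of the 433 raised genes (10.4% of all genes tested had all cold libraries above all controls) and in 148 of the 151 lowered genes (13.7% had all cold libraries below).

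**Figure D1:**
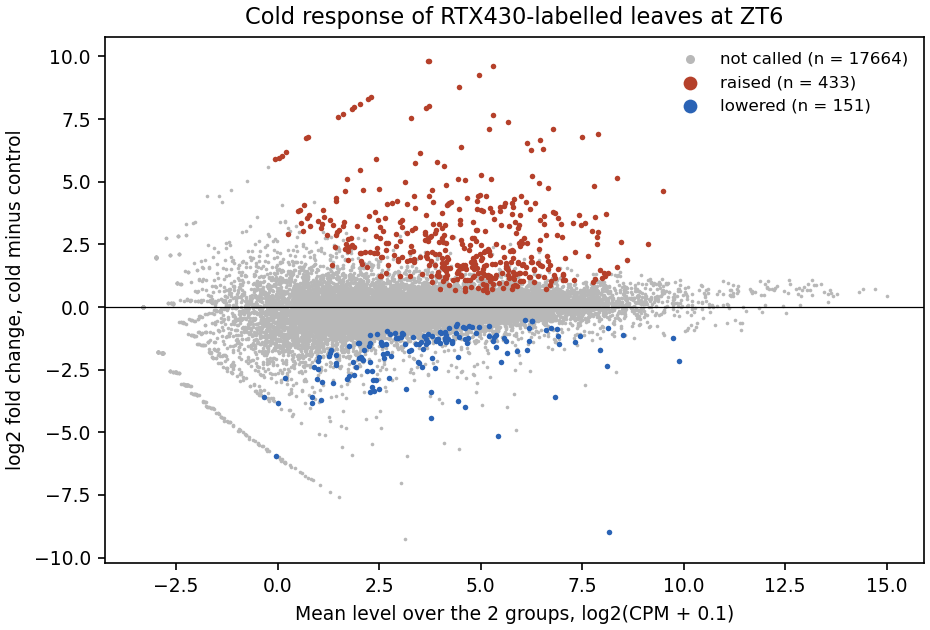
Log2 fold change (cold minus control) of each of the 18248 genes tested against its mean level, as log2(CPM + 0.1), over both groups of RTX430-labelled leaves at ZT6. Red points are the 433 raised genes, blue points the 151 lowered genes and grey points genes not called; the red points reach further from 0 than the blue ones.

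The rises and falls did not rest equally on control replicate 2. Without it, 449 genes were called, 384 raised and 65 lowered, so that 85.5% of calls were rises in place of 74.1%, and 401 of these genes were among the 584 with the same sign. Control replicate 2 held the highest control value in 102 of the 151 lowered genes, against 40.0% of all genes tested. The number of lowered genes was 69, 91 and 73 without cold replicates 1, 2 and 3, and 130 and 155 without control replicates 1 and 3. The number of raised genes stayed between 343 and 384 when any 1 of the 6 libraries was left out. Scaling by library totals in place of TMM moved the median of all genes from -0.09 to -0.41 and gave 278 raised and 237 lowered genes, so the split between rises and falls holds relative to the TMM scaling.

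The longest run of raised genes that follow each other directly by identifier held 5 genes on chromosome 2, and it includes the gene with the smallest adjusted p of the whole response. That gene, Sobic.002G269400, measured 6.12, 1.37 and 2.36 CPM in control replicates 1, 2 and 3 and 352, 302 and 419 CPM in cold replicates 1, 2 and 3. Its groups lay far apart, at a log2 fold change of 6.78 ± 0.50 (edgeR, adjusted p = 1.23e-11). Its neighbour Sobic.002G269300 rose from 1.53, 0.457 and 2.55 CPM to 229, 190.2 and 241 CPM, a log2 fold change of 7.12 ± 0.61 (edgeR, adjusted p = 2.74e-10). All cold libraries were again far above every control, and they differed among themselves by less than they differed from the controls.

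Sobic.002G269500 was measured at 0.255, 0.914 and 0.364 CPM in the controls and at 48.3, 41.8 and 44.9 CPM in the cold libraries, a log2 fold change of 6.39 ± 0.69 (edgeR, adjusted p = 3.31e-08). Its cold libraries were close together. Sobic.002G269100 had a single count over the 3 controls and 841 in the cold libraries, which makes a depth-scaled ratio of 1016 with an exact 95% interval of 181.8 to 40160. Its cold level was 55.9, 57.1 and 124.7 CPM, so cold replicate 3 was the highest and every cold library was far above the controls. Sobic.002G269032, at the start of the run, had no count in any control and 4, 27 and 29 counts in the cold libraries, so its cold level was at least 8.19-fold above a floor of 3 counts per library. Intervals and floors cover counting error only, since PCR copies cannot be told from separate molecules. How reads that match several neighbouring copies were counted is not given in the sources used here, so values within such a run are uncertain to that extent.

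The run was also high after cold in SC224 at ZT6, with an exception. Sobic.002G269100 had 0 counts in the 3 SC224 controls and 905 in the 3 SC224 cold libraries, Sobic.002G269300 had 4 and 2454, Sobic.002G269400 had 10 and 1706, and Sobic.002G269500 had 5 and 225. Sobic.002G269032 had none in either SC224 group at ZT6. Over the whole series this gene had 217 counts in the 24 cold-experiment RTX430 libraries, 1 in the 24 SC224 libraries, 0 in the 24 heat-experiment RTX430 libraries and 4 in the 24 Macia libraries, Macia being the genotype the submitters call tolerant in the heat experiment. Nearly all of its RTX430 counts came from chilled libraries, with 43, 60, 65 and 47 at ZT1, ZT6, ZT9 and ZT15. The RTX430 controls of the cold experiment had 1, 0, 0 and 1 at these times. Chilled SC224 libraries had 0 at each time. The heat-experiment libraries were not chilled, so their counts cannot show whether this gene differs between the RTX430 libraries of the 2 experiments. In all, 17 runs of consecutive called identifiers of the same direction were found, 14 raised and 3 lowered, and they hold 33 of the raised genes (7.62%) and 6 of the lowered ones, with 15 of the runs holding 2 genes. Of 256 raised genes whose next identifier was tested, 19 (7.42%) had a raised gene next, against 2.37% raised among all genes tested; of 86 such lowered genes, 3 (3.49%) had a lowered gene next, against 0.827%. A run of 4 on chromosome 1 ends with Sobic.001G406300, at 15.3, 21.9 and 8.003 CPM in the controls and 419, 317 and 548 CPM in the cold libraries (log2 fold change 4.83 ± 0.43, edgeR, adjusted p = 4.93e-10). The other members of that run, Sobic.001G406000, Sobic.001G406100 and Sobic.001G406200, changed by 1.53, 0.73 and 2.71 on the log2 scale, and each lost its call in at least 5 of 12 alternative settings.

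**Figure D2:**
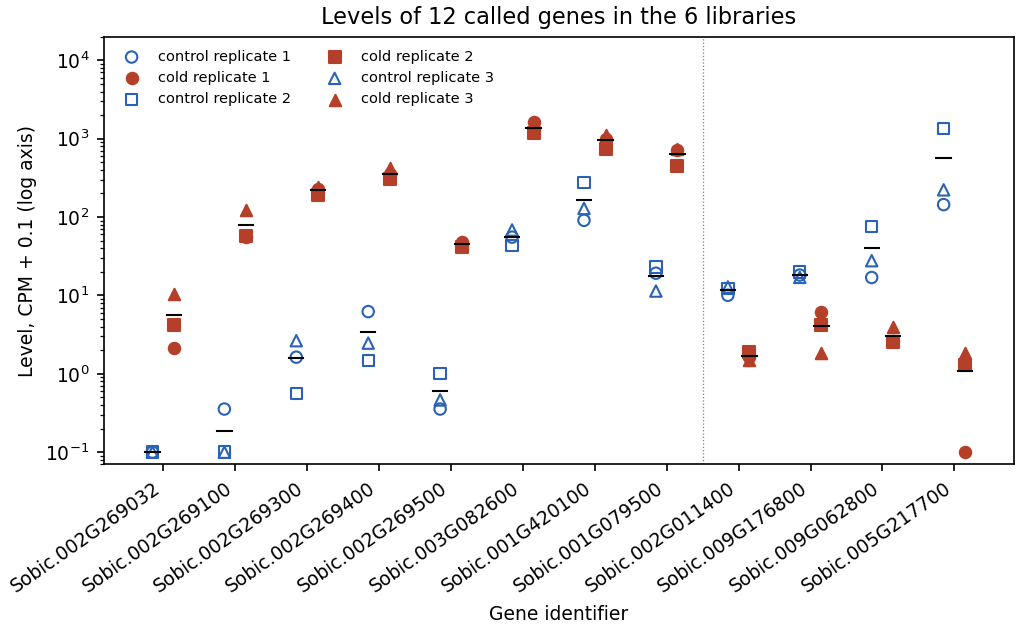
Level of 12 called genes in each of the 6 libraries, as CPM + 0.1 on a log axis, with open symbols for controls, filled symbols for cold libraries and short lines at the group means (n = 3). Left of the dotted line stand the run of 5 on chromosome 2 and the 3 raised genes of highest cold CPM; right of it stand 4 lowered genes, where control replicate 2 (open square) is far above the other controls in Sobic.005G217700 and close to them in Sobic.002G011400.

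Among genes with a group mean of at least 10 CPM, the 15 with the largest rises were chosen by their fitted log2 fold change. The 7 of them with more than 3 counts over the controls spanned 6.67 to 7.68. Another 6 had 1 to 3 counts over the controls, with depth-scaled ratios of 254.8 (exact 95% interval, 45.2 to 10110) in Sobic.004G283300 to 1016 in Sobic.002G269100, described above. All 15 averaged at most 3.84 CPM in the controls and 19.1 to 467 CPM in the cold. In the other 2, Sobic.002G225700 and Sobic.006G205600, the ZT6 controls had no count at all. Sobic.006G205600 reached 30.0, 23.1 and 25.4 CPM in the cold libraries, at least 39.3-fold above the floor, and Sobic.002G225700 reached 13.7, 17.2 and 47.3 CPM, at least 39.2-fold above it. Sobic.006G205600 was not silent in all unchilled leaves, since its RTX430 ZT1 controls averaged 21.7 CPM (SD 18.8, n = 3). Those of Sobic.002G225700 averaged 0 CPM. The highest level among the 15 was that of Sobic.001G481201, at 4.08, 3.43 and 4.00 CPM in the controls and 563, 396 and 443 CPM in the cold libraries (log2 fold change 6.92 ± 0.54, edgeR, adjusted p = 4.97e-11). Its controls were tightly grouped and all cold libraries lay far above them. All 15 were also called as raised in SC224 at ZT6, 14 at RTX430 ZT9, 13 at ZT1 and 12 at ZT15, where 2.04%, 1.76%, 3.11% and 0.789% of all genes tested were called as raised.

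The raised genes with the highest cold CPM, a level not corrected for gene length, were picked out after their values were seen. Sobic.003G082600 rose from 55.3, 42.95 and 68.4 CPM to 1617, 1200 and 1324 CPM, a log2 fold change of 4.63 ± 0.41 (edgeR, adjusted p = 3.68e-10). It was called at the other times too, at 5.72 (ZT1), 4.61 (ZT9) and 4.00 (ZT15), and at 4.14 in SC224 at ZT6, and none of the differences from ZT6 to a single other time was called. Sobic.001G079500 rose from 19.1, 23.1 and 11.3 CPM to 717, 450 and 739 CPM (log2 fold change 5.16 ± 0.55, edgeR, adjusted p = 2.49e-08). Its cold replicate 2 was the lowest cold library, still far above every control. Sobic.001G420100 rose from 90.8, 276 and 129 CPM to 988, 739 and 1131 CPM (log2 fold change 2.53 ± 0.46, edgeR, adjusted p = 2.96e-04), with control replicate 2 above the other controls and below every cold library.

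The 12 largest falls, chosen by the same rule, were often highest in control replicate 2. They spanned log2 fold changes of -8.98 to -2.23, control replicate 2 was the highest control in 11 of them, and in 9 it was at least 2 times the mean of the other controls. The largest was Sobic.005G217700, at 144, 1347 and 223 CPM in the controls and 0, 1.21 and 1.77 CPM in the cold libraries (log2 fold change -8.98 ± 2.504, edgeR, adjusted p = 0.0368). The cold libraries were nearly empty of it and the controls were not, yet the controls spread widely, and without control replicate 2 the change was -7.34 with an adjusted p of 0.139 in edgeR. Sobic.009G130000 had 9.43, 201.5 and 37.8 CPM in the controls and 2.54, 1.81 and 2.83 CPM in the cold, and its adjusted p in edgeR was 0.0162 with and 0.25 without that library. Sobic.001G275500, Sobic.004G209500, Sobic.007G135000 and Sobic.010G130800 also lost their calls without it. The part of control replicate 2 in these falls was not tested beyond leaving it out.

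Other falls held whichever library was left out. Sobic.002G011400 measured 9.94, 12.1 and 12.7 CPM in the controls and 1.52, 1.81 and 1.41 CPM in the cold libraries, a log2 fold change of -2.82 ± 0.52 (edgeR, adjusted p = 3.74e-04). The controls were close together and so were the cold libraries. It was the only gene of the 12 that was also called as lowered in every comparison set beside this one, at -2.18 (RTX430 ZT1), -2.39 (ZT9), -2.77 (ZT15) and -3.54 (SC224 ZT6). Sobic.009G176800 fell from 18.1, 19.9 and 16.9 CPM to 6.09, 4.08 and 1.77 CPM (log2 fold change -2.23 ± 0.41, edgeR, adjusted p = 3.44e-04), with cold replicate 3 the lowest. Sobic.009G062800 fell from 16.8, 75.6 and 27.7 CPM to 2.54, 2.42 and 3.89 CPM (log2 fold change -3.77 ± 0.56, edgeR, adjusted p = 1.18e-05), and it kept its call in all 12 alternative settings although control replicate 2 was its highest control.

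Cold at the other times of day was measured with separate libraries and separate controls, so those values bear on the same genes independently, apart from the shared scaling and estimate of spread. Of the 433 raised genes, 232 (53.6%) were also called as raised at RTX430 ZT9 (1.76% of all genes tested were), 227 (52.4%) at ZT1 (3.11%) and 111 (25.6%) at ZT15 (0.789%). Seen from the other side, the 433 made up 72% of the genes raised at ZT9, 40% of those raised at ZT1 and 77.1% of those raised at ZT15. Their median log2 fold change was 1.64 at ZT9, 1.43 at ZT1 and 0.97 at ZT15, where the medians of all genes were between -0.03 and 0.02. Of the 433, 88 were called as raised at all 3 other times and 135 at none of them.

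The lowered genes were mostly called at ZT6 and at no other time in RTX430. Of the 151, 19 (12.6%) were also called as lowered at ZT9 (0.362% of all genes tested), 30 (19.9%) at ZT1 (3.48%) and 6 (3.97%) at ZT15 (0.214%), and 113 at none of these times. These recurring genes made up 28.8% of the 66 genes lowered at ZT9, 4.72% of the 635 at ZT1 and 15.4% of the 39 at ZT15. A missing call is not a difference. By the tests of the difference given below, 6 of the 151 differed from the mean of the other times and 0 from ZT9. The median log2 fold change of the 151 was -0.58 at ZT9, -0.26 at ZT1 and 0.01 at ZT15. Below the threshold many moved the same way at ZT9, where 92.7% had a negative log2 fold change (49.6% of all genes tested). At ZT1 this share was 64.9% (51.9% of all) and at ZT15 it was 49.7% (47.5% of all). Among the 18248 genes tested, the calls made without control replicate 2 come to 380 rises and 64 falls, since 4 of those 384 rises and 1 of those 65 falls lie outside these genes. Of these, 12 of 64 lowered genes recurred at ZT9, 16 at ZT1 and 5 at ZT15, against 210, 207 and 108 of 380 raised genes. Whether these shares differ between raised and lowered genes was not tested.

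SC224 leaves chilled at the same hour showed many of the same rises. In SC224 at ZT6, 291 of the 433 raised genes (67.2%) were called as raised (2.04% of all genes tested were) and made up 78.2% of the genes raised in SC224, and 99.1% of the 433 had a positive log2 fold change, against 44.8% of all genes tested. Of the 151 lowered genes, 27 (17.9%) were called as lowered in SC224 (0.806%), and 97.4% had a negative log2 fold change, against 54.1% of all genes. The medians were 1.95 and -0.78. Among these genes called without control replicate 2, limited to the 18248, 275 of 380 raised and 18 of 64 lowered genes were called in SC224 as well. Control replicate 2 of SC224 stood apart in the same manner, and its part in the falls was not tested.

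A direct test of the response in RTX430 minus that in SC224 at ZT6 called 0 genes in edgeR (0% of the genes tested). An unadjusted p under 0.05 was found for 467 genes (2.56%), the smallest adjusted p was 0.506, and DESeq2 called 3 genes. In simulated counts with 200 genes, none of low expected count, changed 4-fold in 1 label, this test recovered 56.5% of them. Smaller differences, and differences in genes of low level, could thus be missed. A difference that misses the threshold does not show that both labels responded alike.

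**Figure D3:**
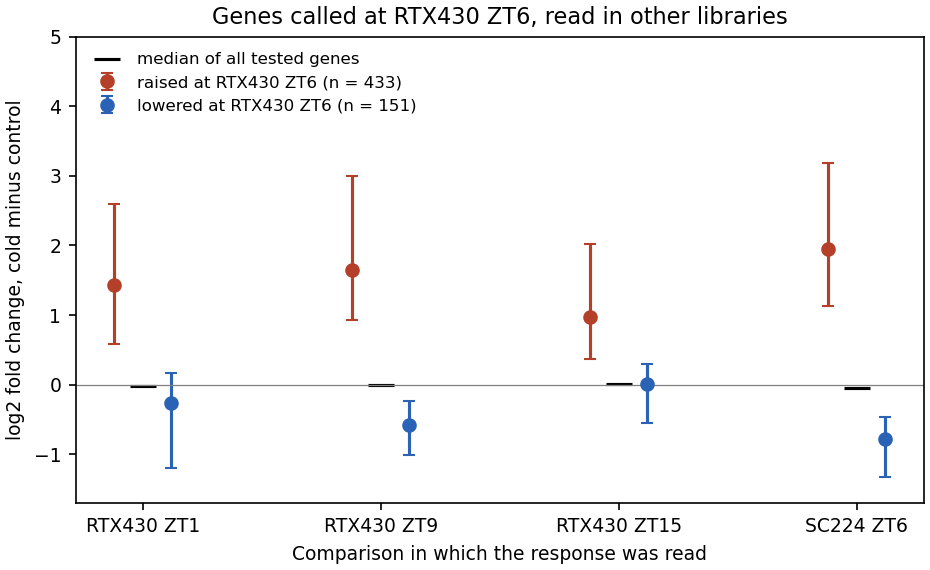
Log2 fold change (cold minus control) in 4 other comparisons of the 433 genes raised (red) and the 151 genes lowered (blue) in RTX430 at ZT6, as the median with bars from the lower to the upper quartile over genes; black dashes are the median of all genes tested. The red medians lie between 0.97 and 1.95 and the blue ones between -0.78 and 0.01.

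The response at ZT6 was tested against the mean response at ZT1, ZT9 and ZT15 in the same edgeR fit, and 13 genes differed (0.0712% of genes tested). All 13 were themselves called at ZT6: 7 (0.0384% of genes tested) rose there and differed upwards, and 6 (0.0329%) fell there and differed downwards. The ZT6 libraries enter both the difference and the ZT6 calls, so this agreement is partly fixed by the choice of genes. Sobic.009G062800 had the smallest adjusted p, at a difference of -3.83 ± 0.62 (edgeR, adjusted p = 0.00754). Against its fall of 3.77 on the log2 scale at ZT6, its values were 0.95 at ZT1, -0.92 at ZT9 and 0.16 at ZT15, none of them called. Sobic.002G217200 measured 340, 714 and 343 CPM in the controls and 71.1, 90.7 and 113 CPM in the cold libraries, and it differed from the other times by -2.13 ± 0.45 (edgeR, adjusted p = 0.0443).

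Among the rises, Sobic.003G202200 went from 33.7, 39.8 and 28.4 CPM to 391, 329 and 316 CPM, with tight groups far apart. Its log2 fold change was 3.35 at ZT6, 0.78 at ZT1, 2.46 at ZT9 and 1.10 at ZT15, and it differed from their mean by 1.90 ± 0.36 (edgeR, adjusted p = 0.016). Sobic.002G269500, of the run on chromosome 2, differed by 4.02 ± 0.77 (edgeR, adjusted p = 0.016), with log2 fold changes of 3.12 at ZT1, 3.09 at ZT9 and 0.88 at ZT15. Its neighbours Sobic.002G269300 and Sobic.002G269400 did not pass this test, at differences of -0.43 ± 0.62 and 0.52 ± 0.50. Sobic.007G221800 and Sobic.002G291066 rose at ZT6 by 3.01 and 2.30 and fell at ZT1 by 1.86 and 1.29 on the log2 scale. In SC224 at ZT6 the 7 genes that differed upwards were all called as raised (2.04% of all genes tested were). Of the 6 that differed downwards, Sobic.005G169600 was called as lowered there (0.806% of all genes tested were), at -1.35, and the other 5 were not called, at -1.43 to -0.38.

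These 13 calls depended on single libraries and on the fit. Without cold replicate 1 at ZT6 no gene was called, without cold replicate 3 or control replicate 1 a single gene was called, without control replicate 3 there were 3 calls, and without ZT9 cold replicate 1 there were 20. Scaled by library totals, the test called 11 genes, all of them downwards, with the replicate number as a block it called 0, in the libraries concerned alone 2, of which 1 was among the 13, and in DESeq2 100.

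**Figure D4:**
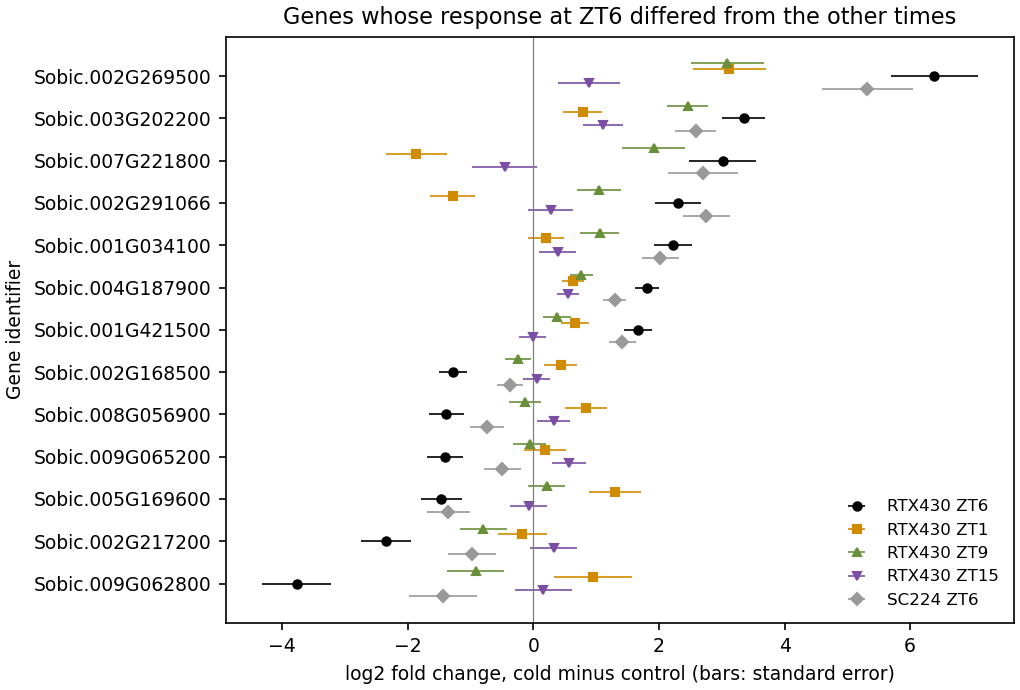
Log2 fold change (cold minus control, bars are ± SE) of the 13 genes whose response in RTX430 at ZT6 differed from the mean of the other times, by gene, with black circles for RTX430 ZT6, other coloured symbols for the other RTX430 times and grey diamonds for SC224 ZT6. The black circles are outermost for most genes, and the grey diamonds lie on the same side of 0 as the black circles in all 13.

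Pair by pair, ZT6 differed most often from ZT1, in 288 genes (1.58% of genes tested), then from ZT15 in 43 (0.236%) and from ZT9 in 1 (0.00548%). Of the 288, 132 were lowered at ZT1 (3.48% of all genes tested), 84 were raised there (3.11%), and 197 were called at ZT1 and not at ZT6. The ZT1 libraries enter both the difference and these calls, so the overlap is partly fixed by the choice of genes. Sobic.001G411400 measured 423, 450 and 457 CPM in the ZT6 controls and 360, 453 and 390 CPM in the ZT6 cold libraries. Its ZT6 groups overlapped, its log2 fold change was -0.15 ± 0.22 at ZT6 and -3.03 ± 0.25 at ZT1, and the difference had an adjusted p of 2.66e-06 in edgeR. Sobic.003G360800 likewise changed by -0.77 ± 0.39 at ZT6, where its groups overlapped, and by -5.08 ± 0.47 at ZT1 (edgeR, adjusted p of the difference = 3.31e-05). The 288 genes became 163 without ZT1 cold replicate 3, 191 without ZT1 cold replicate 1, 181 without ZT1 control replicate 3, and 188, 172 and 187 without ZT6 cold replicates 2 and 3 and ZT6 control replicate 3. The 43 genes became 16 and 14 without ZT6 control replicates 1 and 2, 3, 26 and 19 without ZT6 cold replicates 1, 2 and 3, 17, 27 and 25 without ZT15 control replicates 1, 2 and 3, and 23 without ZT15 cold replicate 1.

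A small set changed direction between ZT1 and ZT6. Of the 288, 9 were raised at ZT6 and lowered at ZT1, and 3 were lowered at ZT6 and raised at ZT1, each past the threshold at both times. Sobic.003G018150 went from 0.765, 1.14 and 0.909 CPM in the controls to 15.2, 10.7 and 8.12 CPM in the cold libraries at ZT6. Its log2 fold change was 3.54 ± 0.54 at ZT6 and -2.42 ± 0.56 at ZT1 (edgeR, adjusted p of the difference = 2.17e-05), with 3.67 at ZT9 and 2.68 in SC224 at ZT6. Sobic.003G354900 rose by 1.53 at ZT6 and fell by 2.02 at ZT1 on the log2 scale. Sobic.007G054000 went the other way, at -2.01 at ZT6 and 1.65 at ZT1. The gene that differed from ZT9 was Sobic.001G480400, at 0.765, 1.83 and 0.728 CPM in the controls and 5.59, 3.17 and 2.47 CPM in the cold libraries, with a log2 fold change of 1.68 ± 0.48 at ZT6 and -2.42 ± 0.35 at ZT9. Without ZT6 control replicate 2 there were 3 genes that differed from ZT9, and without ZT9 cold replicate 3 there were 2. Its control mean was 1.11 CPM at ZT6 and 62.3 CPM at ZT9 (SD 0.625 and 17.8, n = 3), so it was low at ZT6 and not at ZT9, and its ZT6 call was lost in 7 of 11 alternative settings.

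The genes that responded at ZT6 also had a time-of-day pattern in leaves that were never chilled. This was read in the controls of SC224, which share no library with the comparison, over genes with a mean of at least 1 CPM at some time. Of 398 raised genes, 246 (61.8%) had their highest SC224 control mean at ZT1, against 33.9% of 17757 genes tested, and 8.29% had it at ZT9, against 21.9%. Of 148 lowered genes, 90 (60.8%) had their highest mean at ZT9 and 11.5% at ZT1. Without SC224 ZT1 control replicate 1, the library with the mixed label check, 58.1% of raised genes were highest at ZT1 (33.5% of all) and 60.8% of lowered genes at ZT9 (21.8% of all). In the Macia controls of the heat experiment, the shares were 69.3% of raised genes highest at ZT1 (32.2% of all) and 55.1% of lowered genes highest at ZT9 (19% of all). With the calls made without control replicate 2, 62% of 350 raised genes were highest at ZT1 in SC224, and 47.6% of 63 lowered genes at ZT9. Control replicate 2, highest in most lowered genes, correlated with the ZT9 RTX430 controls at 0.913 and with its own ZT6 group at 0.908, while control replicates 1 and 3 correlated with these at 0.92 and 0.912 and at 0.956 and 0.958. Its part in the ZT9 share was not tested beyond leaving it out. These shares describe genes that are not independent of each other, and they carry no test.

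**Figure D5:**
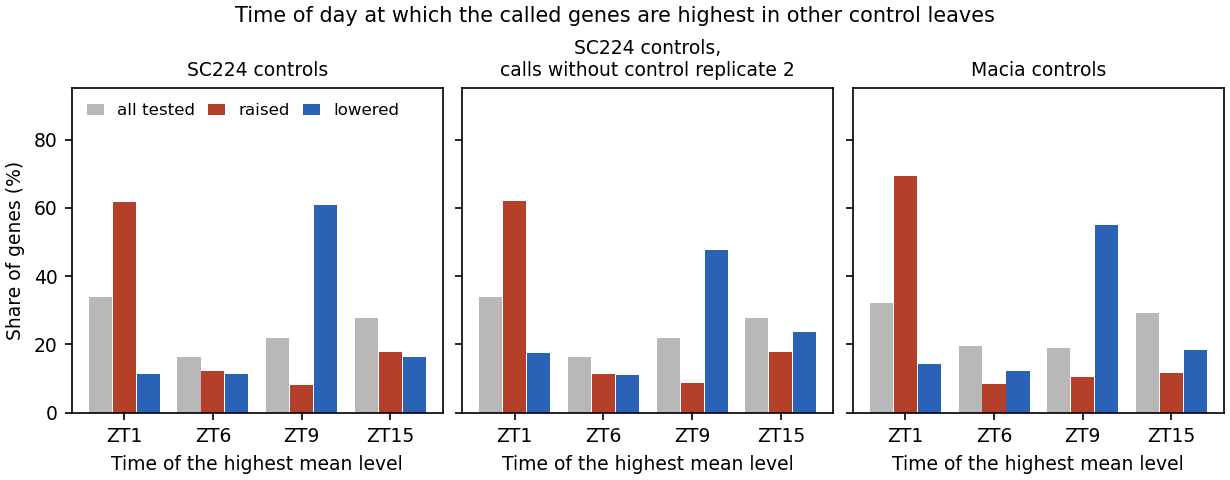
Share of genes (%) whose highest mean control level falls at each time of day, for all genes tested (grey), genes raised (red) and genes lowered (blue) by cold in RTX430 at ZT6. The panels use SC224 controls, SC224 controls with the calls made without control replicate 2, and Macia controls; red is highest at ZT1 and blue at ZT9 in each panel.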

How the data were processed

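PolyA RNA of leaves was sequenced, and the authors deposited 1 table of unnormalized counts (whole numbers, 34129 genes by 96 libraries). The submitters' processing notes list HISAT2 and DESeq2 with no role or version; the counter, genome build, annotation and use of strand are not given in the sources used here, so counts of overlapping genes cannot be told apart. Of the identifiers, 0 matched the reference gene table, so planned gene lists, tissue markers and promoter motifs were not used. Groups came from the labels.

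The 48 libraries of the cold experiment were fitted together in edgeR 4.0.16 (R 4.3.3) with 16 group means, TMM factors, filterByExpr by group (minimum count 10, minimum total 15) and the quasi-likelihood F-test, with Benjamini-Hochberg adjustment over 18248 genes and a threshold of 0.05. At least 99.77% of the counts of each of the 6 libraries fell in tested genes. SE is the log2 fold change divided by the root of its F. CPM were computed from the counts and the TMM-scaled totals. No pair of replicates looked like copies (chi-square per degree of freedom 9.57 to 78.3). The common biological coefficient of variation was 0.354. Tested on simulated counts with 200 of 17231 genes changed 4-fold at ZT6, the fit recovered 82.5% for ZT6 cold against control, with 9 other genes called, 74.5% for ZT6 minus the mean of the other times, and 56%, 59% and 53% for ZT6 minus ZT1, ZT9 and ZT15. The changed genes were drawn only from genes above a minimum expected count. Apart from these changes, each gene kept the same expected share in all groups. Recovery in genes of low level, or that vary with the time of day, was not measured.

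Named genes were the 15 raised and 12 lowered with the largest changes among called genes without overlap and with a group mean of at least 10 CPM, and the 6 with the smallest p in each test of a difference, not all of which are described; exceptions are marked. Members, lists and tests were chosen with earlier results of these data known. Alternatives were RLE factors, library totals, no filter, DESeq2 1.42.0, only the libraries concerned, a replicate block and each library left out; the checks of recurrence and time of day without control replicate 2, and in Macia, were chosen after seeing the data.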

Additional observations from a re-analysis of the deposited data

Results flagged for a closer look

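The cold response in RTX430 differed between ZT6 and the other times by the test of the difference itself in 13 genes against the mean of ZT1, ZT9 and ZT15, in 288 genes against ZT1, in 1 gene against ZT9 and in 43 genes against ZT15 (edgeR, adjusted p under 0.05). These counts were 0, 226, 0 and 1 with the replicate number as a block and 2, 346, 0 and 11 in the libraries concerned alone, and without ZT6 cold replicate 1 none of the 13 was called. The difference on the log2 scale, ZT6 minus the mean of the other times, was negative in 6 genes that fell at ZT6. It was -3.83 in Sobic.009G062800, -2.13 in Sobic.002G217200, -1.95 in Sobic.005G169600, -1.73 in Sobic.008G056900, -1.63 in Sobic.009G065200 and -1.36 in Sobic.002G168500. It was positive in 7 genes that rose at ZT6, at 4.02 in Sobic.002G269500, 3.15 in Sobic.007G221800, 2.29 in Sobic.002G291066, 1.90 in Sobic.003G202200, 1.67 in Sobic.001G034100, 1.33 in Sobic.001G421500 and 1.16 in Sobic.004G187900. The genes that fell at ZT6 had ZT1 control means of 1.43 to 3.19 CPM, except Sobic.002G217200 at 32.5 CPM. Levels this low limit how far a fall at ZT1 could be seen. At the other times the control means of the 6 genes were higher, 30.9 to 2050 CPM at ZT9 and 11.25 to 589.7 CPM at ZT15. Their log2 fold changes were -0.92 to 0.21 at ZT9 and -0.07 to 0.57 at ZT15. No cause of these differences was tested.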

How the results depend on the processing

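The 584 calls at ZT6 were 601 with RLE factors, 515 with library totals, 517 without the filter, 742 with DESeq2 and 481 in a fit to the 6 libraries alone, and 420 to 498 with 1 library left out. The deviations of same-numbered control and cold libraries from their group means correlated at 0.31, -0.44 and -0.45 over 7236 genes. Control replicate 1 correlated best with its own number and control replicates 2 and 3 did not. Deviations from a mean of 3 libraries are tied to each other, so these values cannot show whether same-numbered libraries share more than a number. With the replicate block there were 539 calls at ZT6, 0 for ZT6 minus the mean of the other times, 226 for ZT6 minus ZT1, 0 for ZT9, 1 for ZT15 and 0 for RTX430 minus SC224. DESeq2 gave 100, 529, 8, 150 and 3 for these 5 differences, and the fit to the libraries concerned gave 2, 346, 0, 11 and 0. ZT6 minus ZT15 gave 12 with library totals and 25 without the filter. With 1 library left out, the 5 differences ranged over 0 to 20, 163 to 300, 1 to 3, 3 to 61 and 0 to 0 calls; the lowest of ZT6 minus ZT15 came without ZT6 cold replicate 1 and the highest of ZT6 minus ZT9 without ZT6 control replicate 2, and the causes were not tested. With library totals, ZT6 minus ZT1 had 58 upward and 231 downward calls in place of 175 and 113. Sobic.007G037100, not called at ZT6 (0.16 on the log2 scale), was at -0.17 with library totals. The alternatives for gene lists and promoter motifs were not run. The depth of 2711014 to 8046606 counts limits genes of low level, and how many plants a library holds was not given.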

Other observations

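Called genes were spread over all 10 chromosomes carried in the identifiers. The share of tested genes that rose was lowest on chromosome 5 (1.22% of 905) and highest on chromosome 1 (2.85% of 3338), and the share that fell was lowest on chromosome 3 (0.552%) and highest on chromosome 5 (1.22%). Chromosome 5 had 11 raised and 11 lowered genes. The lowered genes of highest control CPM, picked out after their values were seen, were Sobic.002G384400 and Sobic.004G142800. Sobic.002G384400 measured 1180, 2158 and 1291 CPM in control replicates 1, 2 and 3 and 313, 298 and 440 CPM in cold replicates 1, 2 and 3 (log2 fold change -2.14, edgeR, adjusted p = 0.0114). It was 1.18 at ZT1, not called, and its difference between ZT6 and ZT1 had an adjusted p of 0.0105 in edgeR. Sobic.004G142800 measured 1144, 1641 and 777 CPM in the controls and 482, 446 and 596 CPM in the cold libraries (log2 fold change -1.23, edgeR, adjusted p = 0.0138). Neither was called without control replicate 2, at adjusted p values of 0.0836 and 0.186 in edgeR.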
